A study of Homo sapiens with 6 samples.

Results

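Hairpin 2 against BCAT1 was compared with hairpin 1 against the same gene in SK-N-BE(2), an established human neuroblastoma line with amplified MYCN. The contrast set 4 of the 6 libraries in the series against each other, 2 for each hairpin, and covered the 18734 expressed genes among 64252 rows of the count table. Both groups are knockdowns (shBCAT1#1 and shBCAT1#2 in the labels), so the comparison asks where cells given different hairpins against the same transcript differed in mRNA. The other 2 libraries carried a control hairpin (shControl). They had no weight in the contrast but entered the fit, where they share in the estimate of the spread and so bear on the p-values. Their levels are also given beside the hairpins for scale. The sources used here do not give the hairpin sequences, the vector, the time of harvest or whether the cells were a pool or a clone.

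A short hairpin RNA is cut by Dicer into a small duplex, and a strand of it guides Argonaute to transcripts that it pairs with. Each hairpin sequence has its own efficiency, and each can also act on transcripts that match only its seed. BCAT1 is the cytosolic transaminase that moves the amino group of leucine, isoleucine and valine onto alpha-ketoglutarate, which gives glutamate. In neuroblastoma, N-Myc drives growth on a background of sympathetic neuron genes, among them those for making and storing catecholamines.

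Libraries held 32333416 to 39321388 counts, with replicate 2 of hairpin 1 the shallowest. Log2 levels across genes correlated at 0.988 between the hairpin 1 replicates and 0.989 between the hairpin 2 replicates, and at 0.9677 to 0.97 between libraries of different hairpins. Genes are not independent replicates, so these values are descriptions. The sympathetic markers PHOX2A, HAND2, GATA3, ISL1, TH, DBH and CHGA were present in all 6 libraries. Levels are given as CPM, the count as a share of the scaled library size. Whether the replicates were grown as separate cultures is not stated in the labels, so p-values cover only the variation among these libraries, and that may be technical.

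BCAT1 itself (ENSG00000060982, chromosome 12, 24810022 to 24949459, minus strand, hg38) was lowest with hairpin 1. It stood at 459 and 475 CPM in the control libraries, 55.8 and 55.3 CPM with hairpin 1, and 116 and 111 CPM with hairpin 2. The groups did not overlap, and both hairpins lay far below control. BCAT1 was 2.04-fold higher with hairpin 2 than with hairpin 1 (log2 fold change 1.03 ± 0.04 SE, adjusted p = 7.3e-07 by edgeR). Its exons overlap those of other annotated genes. The sources used here do not state whether counting used strand, so reads of overlapping genes, here and below, may belong to either. MYCN, which encodes N-Myc, was at 1820 and 1830 CPM with hairpin 1 and at 1700 and 1820 CPM with hairpin 2. The upper hairpin 2 library lay beside those of hairpin 1, and the 95% interval of the log2 difference ran from −0.15 to 0.04 (edgeR adjusted p = 0.34).

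The hairpins differed widely across the transcriptome. Of the 18734 genes tested, 8650 (46.2%) passed an edgeR adjusted p of 0.05, 4290 (22.9%) higher with hairpin 2 and 4360 (23.3%) lower. Most of these differences were small, with a median size of 0.53 on the log2 scale, and 1861 called genes differed by over 2-fold, 1066 of them higher and 795 lower. Past 8-fold, 83 genes were higher and 38 lower. When the test itself asked for more than 1.5-fold, 1774 genes passed, 958 higher and 816 lower. For 7776 genes (41.5%) the 95% interval of the difference lay inside 1.5-fold, and 4598 of those were also not called. The median log2 fold change over all genes was 0.005.

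**Figure D1:**
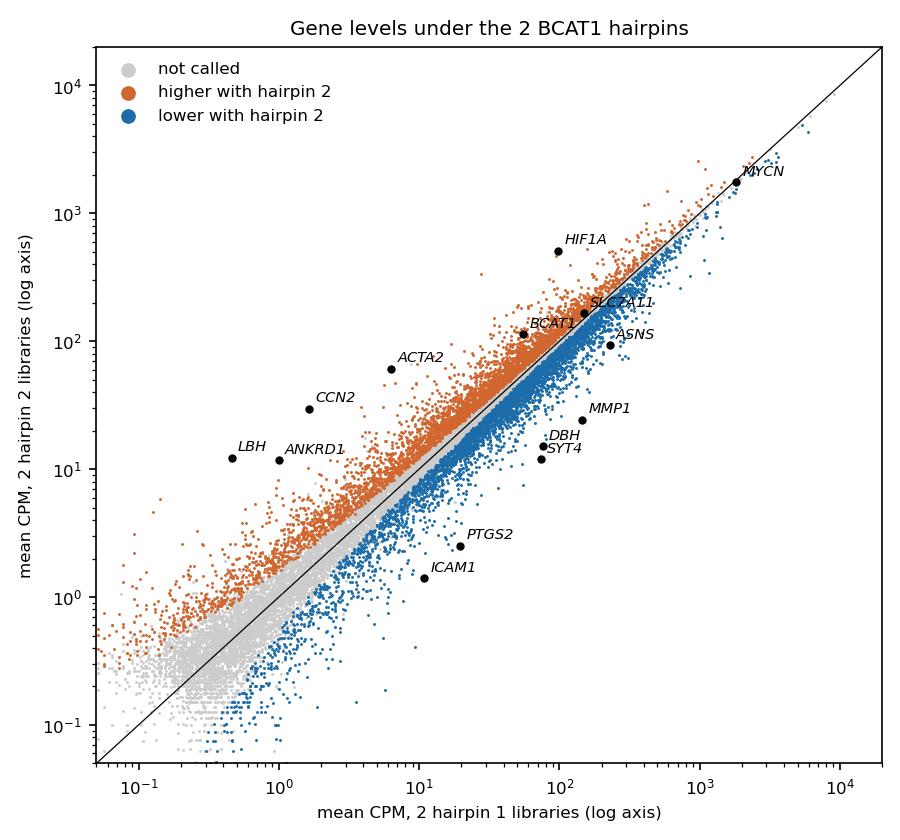
Mean level of each gene in the 2 hairpin 1 libraries (horizontal, CPM, log axis) against the 2 hairpin 2 libraries (vertical, CPM, log axis), with genes called higher in orange, called lower in blue and not called in grey; genes at 0 in a group are not drawn. LBH, CCN2, ANKRD1, ACTA2 and HIF1A lie above the diagonal, PTGS2, ICAM1, SYT4, MMP1, DBH and ASNS below it, and MYCN on it.

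Calls followed gene type and level. Among protein-coding genes 7620 of 13918 were called (54.7%), against 24.6% of lincRNAs and 10.5% of processed pseudogenes. The called share rose from 15.4% of genes under 1 CPM to 68.8% of genes at 100 CPM or more, where counts are deepest. GC content moved with the direction: among the protein-coding genes in the lowest quintile of GC content 36.8% were higher with hairpin 2 and 21.4% lower, and in the highest quintile 19.8% were higher and 30.9% lower. Across 13907 protein-coding genes the log2 fold change had a Spearman correlation of −0.13 with GC content. After an offset for GC content and length, 9011 of 17459 genes were called, against 8317 of the same genes without it. Of these, 7856 were called both times in the same direction and 0 in opposite directions.

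Among the largest rises with hairpin 2, LBH, a transcription cofactor of limb bud and heart, was at 0.49 and 0.431 CPM with hairpin 1, 12.4 and 12.1 CPM with hairpin 2 and 1.35 and 1.19 CPM in control. CCN2 (connective tissue growth factor) was at 1.65 and 1.63 CPM with hairpin 1, 28.1 and 31.2 CPM with hairpin 2 and 3.76 and 4 CPM in control. For both genes the hairpin 2 libraries were the highest of the 6 and the hairpin 1 libraries the lowest, with no overlap. LBH was 26.4-fold higher (log2 fold change 4.72 ± 0.17 SE, adjusted p = 3.7e-07 by edgeR) and CCN2 18-fold higher (4.17, SE 0.12, edgeR adjusted p = 1.6e-07).

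The same order of libraries held for ANKRD1, ACTA2, CCN1, ALPK2, TENT5C, ADM and CRIM1. ACTA2, the smooth muscle actin, was at 6.68 and 5.95 CPM with hairpin 1, 59 and 63.3 CPM with hairpin 2, and 30 and 31.5 CPM in control, a 9.66-fold difference between hairpins. CCN1, a matrix protein like CCN2, was 8.05-fold higher with hairpin 2. ADM, the vasodilator peptide adrenomedullin, was at 9.72 and 9.61 CPM with hairpin 1 and at 64 and 67.9 CPM with hairpin 2. TENT5C (a non-canonical poly(A) polymerase, 6.94-fold) and ALPK2 (an atypical kinase, 7.89-fold) were also higher. PTPRF, a receptor-type tyrosine phosphatase, was at 12.6 and 12.7 CPM with hairpin 1, 78.5 and 75.5 CPM with hairpin 2 and 74.5 and 69.1 CPM in control. TMEM35A, a chaperone of nicotinic acetylcholine receptors, stood at 1.88 and 1.33 CPM with hairpin 1, 9.56 and 10.9 CPM with hairpin 2 and 13.6 and 12.9 CPM in control. In TMEM35A alone of these the control libraries were above both hairpins.

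HSPE1-MOB4, a readthrough locus (chromosome 2, 197500413 to 197550726, plus strand, hg38), had 0 counts in both hairpin 1 libraries and 551 and 321 counts in the hairpin 2 libraries. Against a floor of 3 counts per library it was at least 129-fold higher with hairpin 2. The locus had 468 and 114 counts (12.4 and 3.08 CPM) in the control libraries, which thus lay far apart. Its exons are those of HSPE1 and MOB4, so reads could be divided among the 3 annotations. HSPE1, the mitochondrial co-chaperonin, was at 288 and 303 CPM with hairpin 1 and at 200 and 218 CPM with hairpin 2. MOB4 was at 78.3 and 72.5 CPM with hairpin 1 and at 74.5 and 81.8 CPM with hairpin 2, and its groups overlapped. HSPE1 and MOB4 were named after their values were seen.

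Among the largest falls with hairpin 2, PTGS2, the inducible cyclooxygenase, was at 20.6 and 18.6 CPM with hairpin 1, 2.75 and 2.29 CPM with hairpin 2 and 6.19 and 5.51 CPM in control. It was 7.76-fold lower with hairpin 2 (log2 fold change −2.96 ± 0.14 SE, adjusted p = 1.1e-06 by edgeR). ICAM1, an adhesion receptor for leukocytes, was at 10.7 and 11.2 CPM with hairpin 1, 1.31 and 1.52 CPM with hairpin 2 and 10.2 and 9.97 CPM in control. For ICAM1 control and hairpin 1 lay side by side and hairpin 2 far below, whereas for PTGS2 control lay between the hairpins. INHBE, an activin subunit and a target of the stress factor ATF4, was at 17.5 and 16.8 CPM with hairpin 1 and at 2.53 and 2.11 CPM with hairpin 2, which was near the control libraries (2.33 and 1.78 CPM).

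SYT4, a synaptotagmin of secretory vesicles, stood at 73 and 74.1 CPM with hairpin 1, 12.1 and 11.8 CPM with hairpin 2 and 15.4 and 14.7 CPM in control. MMP1, the interstitial collagenase, was at 138 and 152 CPM with hairpin 1, 23.6 and 25.2 CPM with hairpin 2 and 58.9 and 60.7 CPM in control. In both genes hairpin 1 was the highest group and hairpin 2 the lowest, and no groups overlapped. MMP10, a matrix protease whose gene lies beside MMP1, was 5.47-fold lower with hairpin 2. ADORA2A, an adenosine receptor, was at 64 and 46.2 CPM with hairpin 1 and at 8.35 and 6.68 CPM with hairpin 2, and its exons overlap an antisense gene and a readthrough locus. XKR7, RERG, PAX5 and NPTX1 were 6.18-fold, 5.87-fold, 5.59-fold and 5.49-fold lower with hairpin 2, and so was HTR3B, a serotonin receptor channel subunit, by 5.62-fold. NPTX1 (neuronal pentraxin) was at 16.7 and 17 CPM with hairpin 1, 3.07 and 3.06 CPM with hairpin 2 and 3.09 and 2.4 CPM in control. RERG is a small GTPase that restrains growth, and PAX5 a transcription factor best known from B cells.

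**Figure D2:**
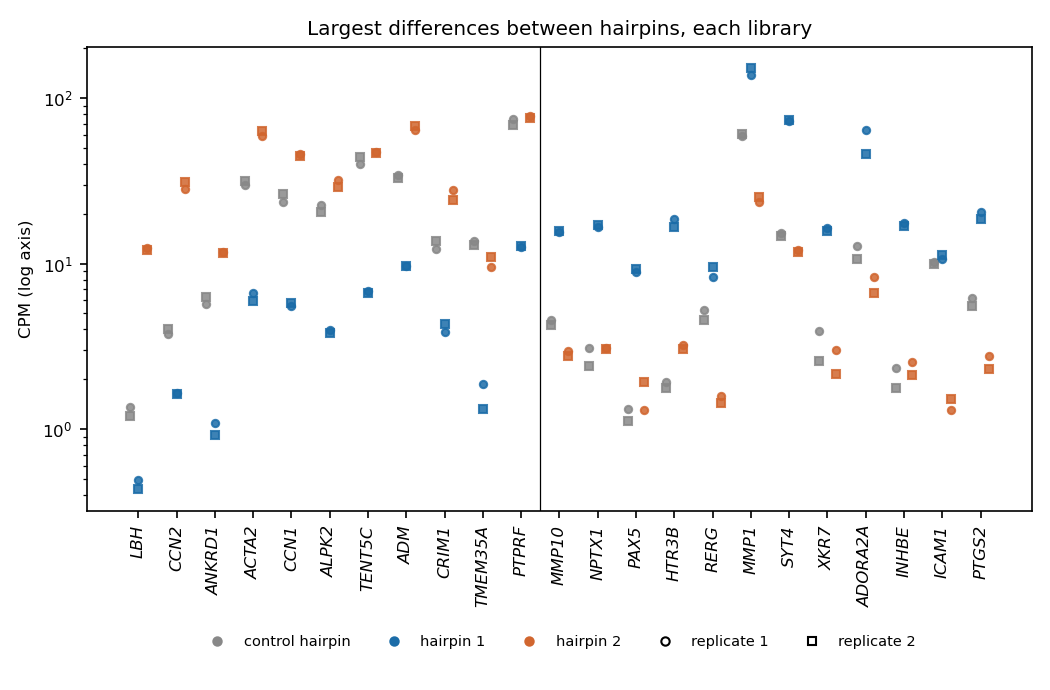
CPM (log axis) of 11 of the 12 largest rises (left of the line) and the 12 largest falls (right of it) in each library, grey for control, blue for hairpin 1 and orange for hairpin 2; HSPE1-MOB4, at 0 with hairpin 1, is not drawn. In each gene the 2 libraries of a hairpin sit close together and the hairpins do not overlap.

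Targets of YAP and of serum response factor (SRF), transcription regulators that respond to cell spreading, tension and actin, were mostly higher with hairpin 2. Of 20 tested members 16 were called higher with hairpin 2 and 1 lower, with a median log2 fold change of 1.32, against 22.9% higher, 23.3% lower and a median of 0.005 over all genes. Beyond those above, ANKRD1, a muscle ankyrin repeat protein, was at 1.08 and 0.924 CPM with hairpin 1, 11.7 and 11.6 CPM with hairpin 2 and 5.66 and 6.3 CPM in control. CRIM1, a cell-surface binder of bone morphogenetic proteins, was at 3.84 and 4.31 CPM with hairpin 1 and at 28 and 24.1 CPM with hairpin 2. Hairpin 1 libraries were the lowest and hairpin 2 the highest for both genes. TAGLN, an actin-binding protein of smooth muscle, was at 5.83 and 5.21 CPM with hairpin 1, 29.8 and 31.2 CPM with hairpin 2 and 39.3 and 38.8 CPM in control, so its control libraries were the highest. The kinase receptor AXL was 6.58-fold higher with hairpin 2, at levels of 0.308 to 2.35 CPM, and was named after its values were seen. SRF itself did not pass the test (log2 fold change −0.12), and FHL2, a LIM-domain cofactor, was the member called lower (−0.39). Without replicate 1 of hairpin 2, 0 members were called lower.

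Promoters of CCN2 and ANKRD1 are shown because they were among its largest rises and because the DNA motif of TEAD factors, the DNA-binding partners of YAP, has a short core. They are the 200 bases before the RefSeq start (GRCh38.p14), read 5′ to 3′ on the gene's strand, with GGAATG, searched on both strands, in capitals. CCN2 lies on the minus strand at chr6:131951373-131951572 and ANKRD1 on the minus strand at chr10:90921088-90921287.
CCN2: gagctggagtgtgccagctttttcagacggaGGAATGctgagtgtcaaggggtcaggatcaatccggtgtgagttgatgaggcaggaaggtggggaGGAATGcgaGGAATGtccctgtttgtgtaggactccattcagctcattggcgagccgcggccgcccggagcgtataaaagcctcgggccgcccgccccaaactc
ANKRD1: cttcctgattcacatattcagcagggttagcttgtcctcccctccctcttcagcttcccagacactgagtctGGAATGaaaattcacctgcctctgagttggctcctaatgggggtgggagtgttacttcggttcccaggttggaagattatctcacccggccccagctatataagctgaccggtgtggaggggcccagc
Of the 20 tested members 16 had a RefSeq promoter window (250 bases before to 50 after the start). GGAATG was in 5 of the 12 windows of members called higher, in 0 of 1 of those called lower and in 0 of 3 of those not called, against 14% of all 35116 windows. A match is a description of the letters, not of binding, and this motif was searched after the list's values were seen. Members were listed as YAP and SRF targets, so an excess over all windows can come with the list. Too few windows lay outside those called higher to relate the motif to direction.

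Matrix genes followed in part. Of 16 tested collagens 9 were higher with hairpin 2 (56.2%, against 22.9% of all genes) and 3 lower, with a median log2 fold change of 0.29. COL5A1, a fibrillar collagen, was at 313 and 320 CPM with hairpin 1, 605 and 603 CPM with hairpin 2 and 599 and 567 CPM in control, so hairpin 1 stood apart and the other groups lay together. COL1A1 was 1.52-fold higher with hairpin 2, whereas COL4A2, a basement membrane collagen, was 2.58-fold lower. With a test for more than 1.5-fold, 1 collagen was called higher and 2 lower. SPARC, a collagen-binding matrix protein, was at 1070 and 1110 CPM with hairpin 1 and at 2160 and 2260 CPM with hairpin 2. Genes of the mesenchymal state of neuroblastoma, the list that holds SPARC, went in both directions, with 10 higher (34.5%) and 8 lower (27.6%) of 29. ZEB1, a repressor of epithelial genes, was 1.73-fold higher.

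Markers of other cells differed between the hairpins in both directions. The 10 fibroblast markers, which share COL1A1, COL3A1 and TAGLN with the lists above, summed to 1032 and 1036 CPM with hairpin 1, 1213 and 1217 CPM with hairpin 2 and 1714 to 1730 CPM in control. Of the 9 tested, 6 were higher with hairpin 2 (66.7%, against 22.9% of all genes) and 1 lower (11.1%, against 23.3%). THY1, the most abundant, was at 392 and 406 CPM with hairpin 1 and at 331 and 330 CPM with hairpin 2, and FAP was at 0 in all 4 hairpin libraries. Epithelial markers summed to 18.96 and 21.63 CPM with hairpin 1 and 27.08 and 27.78 CPM with hairpin 2. Of 6 tested, 1 was called higher (16.7%, below the 22.9% of all genes), and CDH1 was at 0 in 5 of the 6 libraries. Schwann and melanocyte markers summed to 7.323 and 7.703 CPM with hairpin 1 and 11.08 and 11.46 CPM with hairpin 2, with SOX10 and TYR at 0 throughout. Endothelial markers summed to 88.39 and 87.61 CPM with hairpin 1 and to 75.96 and 70.76 CPM with hairpin 2, most of it EMCN, with CLDN5 at 0 throughout. Their part in the differences was not tested. In bulk RNA, fewer cells of a kind and less RNA per cell cannot be told apart.

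Genes of the NF-kB response, which code for inflammatory signals and for the pathway's own inhibitors, were lower with hairpin 2. Of 24 tested members 20 were called lower (83.3%, against 23.3% of all genes) and 2 higher, with a median log2 fold change of −0.78. NFKBIA, the inhibitor that holds NF-kB in the cytoplasm, was at 108 and 108 CPM with hairpin 1, 58.9 and 60.7 CPM with hairpin 2 and 195 and 193 CPM in control. TNFAIP3, a ubiquitin-editing enzyme that ends the response, was at 38.2 and 36.9 CPM with hairpin 1, 10.7 and 9.17 CPM with hairpin 2 and 17.6 and 16.5 CPM in control. Hairpin 2 was the lowest group for both genes, but the highest group was control for NFKBIA and hairpin 1 for TNFAIP3. TNFAIP3 was 3.77-fold lower (log2 fold change −1.92 ± 0.10 SE, adjusted p = 1.7e-06 by edgeR), and TNFAIP2, named after its values were seen, was 4.49-fold lower. The subunit genes NFKB1, NFKB2 and RELB were lower (−0.64, −0.70 and −0.63), and RELA was not called (0.07). BIRC2, an inhibitor of apoptosis, and NFKBIE, another cytoplasmic inhibitor, were the members called higher (0.66 and 0.29). Leukocyte markers summed to 32.74 and 38.5 CPM with hairpin 1 and 20.74 and 17.83 CPM with hairpin 2. CD68 (28.8 and 32.9 CPM with hairpin 1, 17.1 and 14.1 CPM with hairpin 2) made up most of these sums, and CD3E, AIF1 and TYROBP were at 0 in all 6 libraries.

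The 200 bases before the RefSeq starts of TNFAIP3 (plus strand, chr6:137867059-137867258) and CXCL1 (plus strand, chr4:73869193-73869392) are shown because both genes were called lower and hold the kappaB consensus, the letters that NF-kB dimers bind, given in capitals.
TNFAIP3: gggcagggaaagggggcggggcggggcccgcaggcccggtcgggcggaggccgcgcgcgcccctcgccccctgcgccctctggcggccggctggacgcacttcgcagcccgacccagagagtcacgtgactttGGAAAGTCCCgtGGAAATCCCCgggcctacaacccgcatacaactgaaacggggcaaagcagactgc
CXCL1: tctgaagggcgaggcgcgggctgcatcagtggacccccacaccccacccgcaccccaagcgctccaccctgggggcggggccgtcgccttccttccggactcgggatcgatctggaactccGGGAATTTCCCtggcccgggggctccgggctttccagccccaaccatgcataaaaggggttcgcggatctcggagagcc
CXCL1, a chemokine that draws neutrophils, was at 171 and 161 CPM with hairpin 1, 91.0 and 89.3 CPM with hairpin 2 and 248 and 263 CPM in control. RefSeq windows matched 19 of the 24 tested members. CXCL1 was named, and the consensus searched on both strands, after the values were seen. It was in 10 of 16 windows of members called lower, 0 of 1 called higher and 1 of 2 not called. Over all windows the share was 11.3%. Members were listed as NF-kB genes, so an excess over all windows can come with the list, whichever way they moved. Too few windows lay outside those called lower to relate the motif to direction.

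Genes for making, storing and taking up catecholamines were lower with hairpin 2. Of 14 tested, 10 were called lower (71.4%, against 23.3% of all genes) and 1 higher, and the median log2 fold change was −1.03. TH, the rate-limiting enzyme of dopamine synthesis, was at 37.7 and 36.7 CPM with hairpin 1, 17.1 and 19.3 CPM with hairpin 2 and 28.2 and 27.3 CPM in control. DBH, which turns dopamine into noradrenaline, was at 76.4 and 76.3 CPM with hairpin 1, 16.5 and 13.7 CPM with hairpin 2 and 38.2 and 36.9 CPM in control. In both genes hairpin 1 was the highest group, control lay between and hairpin 2 was the lowest. DBH was 5.04-fold lower with hairpin 2 (log2 fold change −2.33 ± 0.08 SE, adjusted p = 3.5e-07 by edgeR) and TH 2.04-fold lower (−1.03, SE 0.08, edgeR adjusted p = 1.8e-05). SLC6A2, the noradrenaline transporter, was at 76 and 81 CPM with hairpin 1 and at 17.6 and 19.5 CPM with hairpin 2, close to control (20.7 and 19.8 CPM). The granins of the secretory granule were lower too, CHGA by 2.85-fold, CHGB by 4.14-fold and SCG2 by 2.26-fold. DDC, MAOA and SLC18A2 were not called. TH and CHGA were named after their values were seen.

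Genes of neuronal differentiation were mostly lower with hairpin 2, 25 of 38 tested (65.8%, against 23.3% of all genes) and 7 higher, with a median log2 fold change of −0.65. STMN2, a microtubule regulator of growth cones, was at 281 and 280 CPM with hairpin 1, 71.8 and 73.3 CPM with hairpin 2 and 99.9 and 112 CPM in control. GAP43, a growth cone membrane protein, was at 279 and 251 CPM with hairpin 1, 79.1 and 77.7 CPM with hairpin 2 and 102 and 105 CPM in control. MAP2, a microtubule protein of dendrites, was at 182 CPM in both hairpin 1 libraries, 69.8 and 72.4 CPM with hairpin 2 and 55.3 and 55.9 CPM in control. Hairpin 1 was the highest group in all of these, while hairpin 2 lay below control for STMN2 and GAP43 and above it for MAP2. NEFH, a neurofilament, was 2.62-fold lower with hairpin 2, and SYN1, a synaptic vesicle protein named after its values were seen, was 4.91-fold lower. The neurotrophin receptor NTRK3 went the other way (1.54), as did the RNA-binding protein ELAVL2 (0.73). Leaving out replicate 2 of hairpin 1, or either hairpin 2 replicate, left 4 members higher.

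Subunits of ligand-gated ion channels were lower as well, 7 of 11 tested (63.6%, against 23.3% of all genes) and 1 higher. HTR3B was at 18.6 and 16.7 CPM with hairpin 1, 3.22 and 3.06 CPM with hairpin 2 and 1.93 and 1.76 CPM in control. Its partner subunit HTR3A was at 15.1 and 12.3 CPM with hairpin 1, 5.23 and 5.22 CPM with hairpin 2 and 2.86 and 1.86 CPM in control. Both serotonin receptor subunits were highest with hairpin 1, and hairpin 2 stayed above control. The nicotinic receptor subunits CHRNB2, CHRNB4 and CHRNA7 were 4.73-fold, 2.81-fold and 2.86-fold lower with hairpin 2, and CHRNA9 was the member called higher (1.54). Of 16 tested transcription factors of the adrenergic state, 7 were lower (43.8%) and 3 higher (18.8%), with LMO1 2.43-fold lower and EYA1 1.79-fold lower, TLX2 1.74-fold higher, and GATA3, PHOX2A and HAND2 not called.

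Targets of ATF4, the transcription factor of the amino acid response, were lower with hairpin 2. Of 40 tested members 26 were called lower (65.0%, against 23.3% of all genes) and 6 higher, with a median log2 fold change of −0.45. With a test for more than 1.5-fold, 9 were called lower and 1 higher. ASNS, asparagine synthetase, was at 234 and 223 CPM with hairpin 1, 93.2 and 94.3 CPM with hairpin 2 and 98.4 and 101 CPM in control. TRIB3, a pseudokinase that feeds back on ATF4, was at 50.7 and 57.4 CPM with hairpin 1, 19.8 and 19.1 CPM with hairpin 2 and 25.4 and 26.3 CPM in control. SLC7A5, a carrier of large neutral amino acids that include the branched-chain ones, was at 608 and 597 CPM with hairpin 1, 353 and 365 CPM with hairpin 2 and 335 and 328 CPM in control. Hairpin 1 was the highest group in each of these genes, and the hairpin 2 libraries lay within 1.5-fold of the control libraries. Not all members did so, and SLC7A11 and ALDH1L2 lay above control with both hairpins. SLC7A11 was at 151 and 146 CPM with hairpin 1, 170 and 163 CPM with hairpin 2 and 25.3 and 26 CPM in control. ALDH1L2 was at 118 and 111 CPM with hairpin 1, 104 and 99 CPM with hairpin 2 and 49 and 52.8 CPM in control. ASNS was 2.44-fold lower with hairpin 2 (log2 fold change −1.29 ± 0.04 SE, adjusted p = 2.7e-07 by edgeR), TRIB3 2.77-fold and SLC7A5 1.68-fold. DDIT4, an inhibitor of mTORC1, was 1.84-fold lower, and CHAC1, which breaks down glutathione, was 2.17-fold lower. ATF4 mRNA itself was lower by a small amount (−0.18). Members called higher included DDIT3, the stress factor CHOP, by 1.49-fold. Exons of DDIT3 overlap those of MARS1, which was 1.4-fold lower. CHAC1 and DDIT3 were named after their values were seen.

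The promoter of ASNS (200 bases before the RefSeq start, minus strand, chr7:97872409-97872608) is shown because ASNS had the smallest p of this list and holds the amino acid response element, here TGATGNAA, in capitals, with its first base 68 bases before the start.
ASNS: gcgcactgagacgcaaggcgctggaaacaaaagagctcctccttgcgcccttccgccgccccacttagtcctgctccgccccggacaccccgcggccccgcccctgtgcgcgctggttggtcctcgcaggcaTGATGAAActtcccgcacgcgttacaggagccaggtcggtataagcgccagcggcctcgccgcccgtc
Windows matched 30 of the 40 tested members. TGATGNAA was searched on both strands. It was in 4 of 18 windows of members called lower, 0 of 5 called higher and 1 of 7 not called. Over all windows the share was 3.62%. Members were listed as ATF4 targets, so an excess over all windows can come with the list. The windows were too few to relate the motif to direction.

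**Figure D3:**
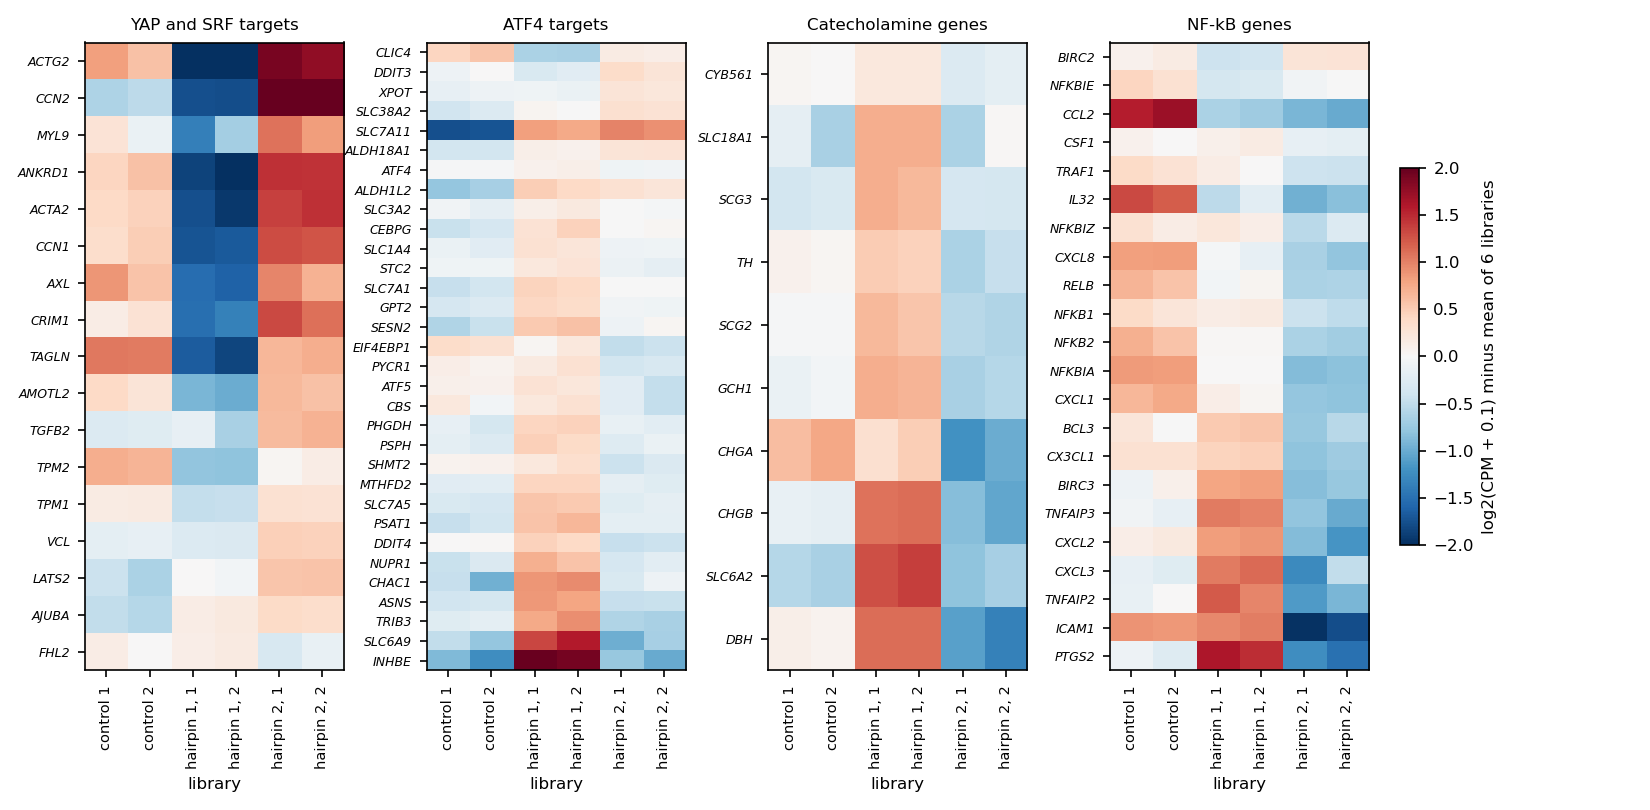
Called members of the YAP and SRF, ATF4 and NF-kB lists, and members of the catecholamine list called lower (rows, ordered by the difference between hairpins) in each of the 6 libraries (columns); colour is log2(CPM + 0.1) minus the gene's mean over the 6 libraries, cut at −2 and 2. Replicates look alike, hairpin 1 is blue and hairpin 2 red for most YAP and SRF targets, and hairpin 2 is bluer than hairpin 1 for most members of the other lists.

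Enzymes that ATF4 controls in serine and folate metabolism showed the same order. Of 20 tested serine, glycine and folate genes 14 were lower with hairpin 2 (70.0%, against 23.3% of all genes) and 2 higher, with a median of −0.43. PSAT1, an enzyme of serine synthesis, was at 259 and 276 CPM with hairpin 1, 152 and 152 CPM with hairpin 2 and 126 and 136 CPM in control. MTHFD2, a mitochondrial folate enzyme, was at 338 CPM in both hairpin 1 libraries, 220 and 212 CPM with hairpin 2 and 214 and 216 CPM in control. Hairpin 1 stood above both other groups in each. SHMT2 and MTHFD1L were 1.56-fold and 1.45-fold lower. Of 20 cytosolic aminoacyl-tRNA synthetases, which charge tRNAs, 13 were lower (65.0%) and 1 higher, with a smaller median of −0.23, and YARS1, TARS1 and GARS1 led (1.63-fold, 1.53-fold and 1.49-fold). Amino acid transporters split, with 10 lower (50.0%) and 6 higher (30.0%, against 22.9% of all genes) of 20. SLC6A9, a glycine transporter, was at 10.1 and 12 CPM with hairpin 1, 1.96 and 2.47 CPM with hairpin 2 and 2.78 and 2.27 CPM in control, and SLC38A9, the lysosomal arginine sensor, was 2.33-fold higher. Several members stand in more than 1 of these lists. With a test for more than 1.5-fold, 1 serine, glycine and folate gene and 1 synthetase were called lower. Of the transporters, 3 were then called lower and 1 higher.

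Enzymes of branched-chain amino acid breakdown, the pathway BCAT1 belongs to, went in both directions. Of 8 members, 3 were higher with hairpin 2 (37.5%, against 22.9% of all genes) and 4 lower (50.0%, against 23.3%). BCAT1 was among those higher. The list held BCAT1, BCAT2 and the subunits and regulators of the branched-chain ketoacid dehydrogenase. BCKDHB, a subunit of its decarboxylase, was at 40.7 and 37 CPM with hairpin 1, 24.2 and 24.6 CPM with hairpin 2 and 18.8 and 21.1 CPM in control. DBT, the transacylase core, was 1.28-fold higher with hairpin 2, and DLD, the dehydrogenase subunit shared with other complexes, 1.2-fold lower. PPM1K, the phosphatase that activates the complex, rose from 1.81 and 2 CPM with hairpin 1 to 5.08 and 5.14 CPM with hairpin 2. BCAT2, the mitochondrial transaminase, was 1.2-fold lower (edgeR adjusted p = 0.023), and BCKDK, the inhibiting kinase, 1.15-fold lower (edgeR adjusted p = 0.013). With the GC and length offset neither passed (edgeR adjusted p = 0.08 and 0.12). BCAT2 also did not pass without replicate 2 of hairpin 1 or without replicate 1 or 2 of hairpin 2 (edgeR adjusted p = 0.11, 0.099 and 0.097), nor BCKDK without replicate 1 of hairpin 1 or of hairpin 2 (0.06 and 0.075). Without replicate 1 of hairpin 2 the number lower was 2. PPM1K, BCAT2 and BCKDK were named after their values were seen.

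Further down the pathway 7 of 20 members were higher (35.0%) and 5 lower (25.0%), not far from the shares over all genes. The subunits of methylcrotonyl-CoA carboxylase, an enzyme of leucine breakdown, moved in opposite directions. MCCC1 was at 24.6 and 25.2 CPM with hairpin 1, 55.7 and 56.7 CPM with hairpin 2 and 29.9 and 29.6 CPM in control. MCCC2 was at 102 and 101 CPM with hairpin 1, 48 and 52 CPM with hairpin 2 and 71.7 and 72.8 CPM in control. Hairpin 2 was thus the highest group for one subunit and the lowest for the other. MCCC1 was 2.26-fold higher (log2 fold change 1.17 ± 0.06 SE, adjusted p = 1.6e-06 by edgeR) and MCCC2 2.03-fold lower (−1.02, SE 0.05, edgeR adjusted p = 1.5e-06). Exons of MCCC1 overlap the antisense gene MCCC1-AS1. ALDH6A1, which acts on valine, was 1.89-fold higher, and PCCB, a subunit of propionyl-CoA carboxylase, 1.63-fold lower.

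Genes of the cell cycle were lower with hairpin 2 in large number and by small amounts. In S phase and DNA replication 36 of 44 members were lower (81.8%, against 23.3% of all genes) and 3 higher, with a median log2 fold change of −0.32. In G2/M and mitosis 39 of 44 were lower (88.6%) and 1 higher, with a median of −0.48. FOXM1, the transcription factor of mitotic genes, was at 350 and 356 CPM with hairpin 1, 153 and 151 CPM with hairpin 2 and 325 and 317 CPM in control. MKI67, the proliferation antigen Ki-67, was at 555 and 635 CPM with hairpin 1, 289 and 285 CPM with hairpin 2 and 280 and 299 CPM in control. FOXM1 was lowest with hairpin 2, while for MKI67 hairpin 2 lay beside control and hairpin 1 above both. GINS1, a part of the replicative helicase, was 2.61-fold lower and KIF23, a kinesin of cytokinesis, 2.15-fold lower. ANLN, a scaffold of the contractile ring, was the mitotic member called higher (1.67-fold). With a test for more than 1.5-fold, 3 S phase members and 8 mitotic members were called lower. MKI67 was named after its values were seen.

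MYC and MYCN target genes were lower in 25 of 60 cases (41.7%) and higher in 4 (6.67%), with a median of −0.12. The share lower was 23.3% over all genes and 41.1% over genes at 100 CPM or more, so it lay near that of abundant genes. The share higher was 22.9% over all genes and 27.7% over those abundant genes, so the list lay below both in rises. SRM, spermidine synthase, was at 200 and 207 CPM with hairpin 1, 77.4 and 80.3 CPM with hairpin 2 and 184 and 176 CPM in control, so hairpin 2 stood alone below. HSPD1, the mitochondrial chaperonin, was 1.77-fold lower. NOLC1, a nucleolar chaperone, was at 183 CPM in both hairpin 1 libraries, 311 and 306 CPM with hairpin 2 and 400 and 416 CPM in control. Windows matched 52 of the 60. The E-box CACGTG was in 9 of 23 windows of members called lower, 1 of 2 called higher and 11 of 27 not called, against 7.26% of all windows. The shares were thus alike in members called lower and not called.

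In the large complexes, most members differed little and a few differed much. Of 79 cytosolic ribosomal proteins 24 were lower and 13 higher, with a median of −0.04, and RPL29 was 1.64-fold lower. Of 72 nuclear subunits of oxidative phosphorylation 25 were lower and 13 higher, with a median of −0.09. UQCR10, a small subunit of complex III, was at 99.8 and 105 CPM with hairpin 1, 25.7 and 26.5 CPM with hairpin 2 and 102 and 93.9 CPM in control. PSMC1, an ATPase of the proteasome, was at 202 and 206 CPM with hairpin 1, 99 and 102 CPM with hairpin 2 and 253 and 248 CPM in control. In both genes hairpin 2 was the lowest group, by 3.93-fold and 2.03-fold below hairpin 1. Of 31 proteasome subunits 9 were lower and 2 higher, and without replicate 2 of hairpin 2 the number lower was 5. The shares called lower in the ribosomal, oxidative phosphorylation and proteasome lists (30.4%, 34.7% and 29%) were near those of all genes (23.3%) and of protein-coding genes (27.8%). The shares called higher (16.5%, 18.1% and 6.45%) were below those of all genes (22.9%) and of protein-coding genes (26.9%). NOB1, an endonuclease of ribosome maturation, was 2.45-fold lower.

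**Figure D4:**
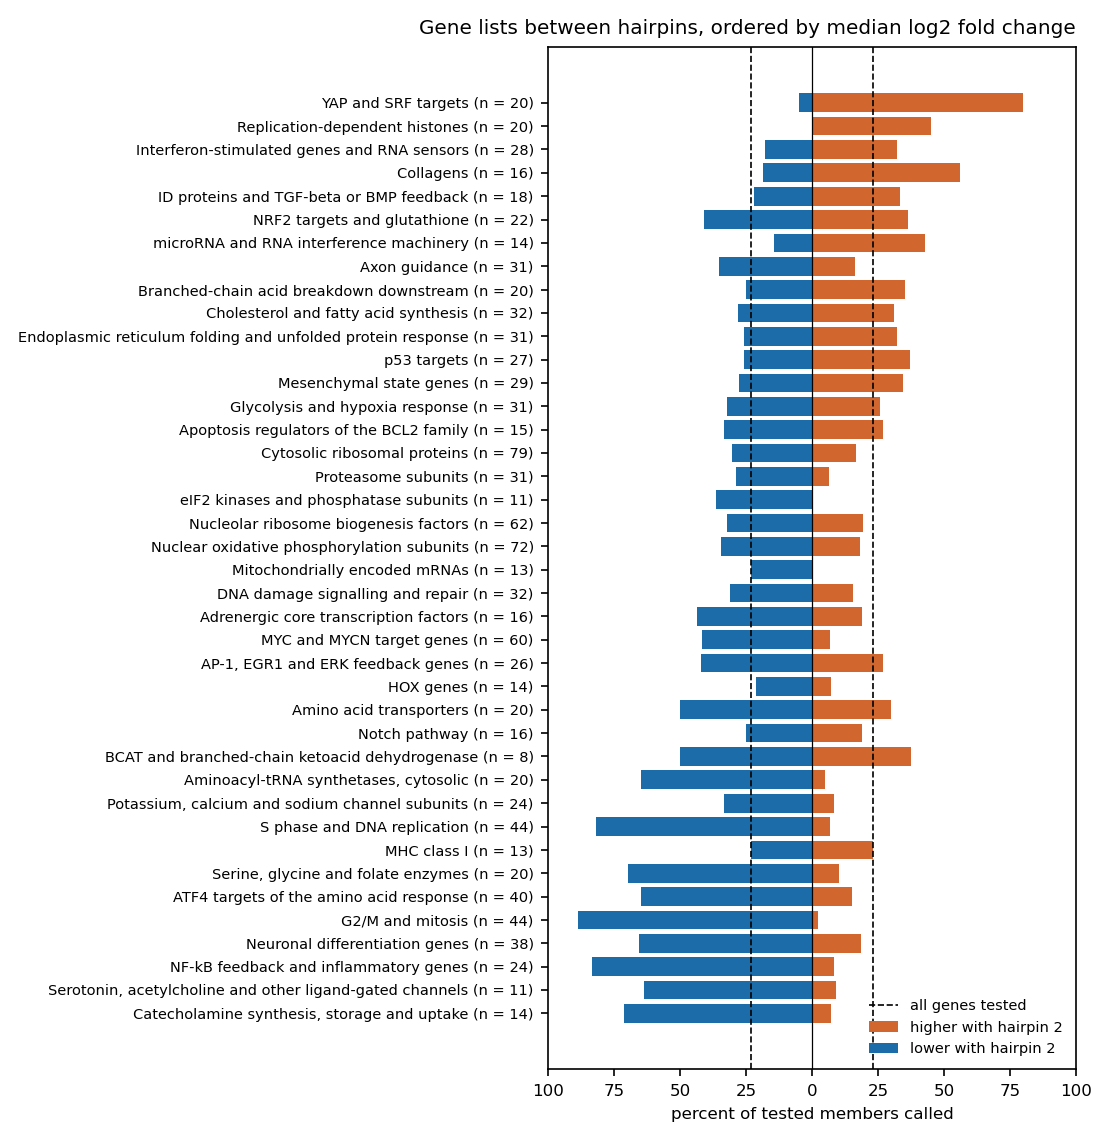
Percent of tested members called higher (orange, right) or lower (blue, left) with hairpin 2 for 40 gene lists, ordered by median log2 fold change; n is the number of members tested and dashed lines mark the shares over all genes (22.9% and 23.3%). YAP and SRF targets stand at the top with 80.0% higher, and catecholamine genes at the bottom with 71.4% lower.

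HIF1A, the oxygen-regulated transcription factor, was named after its values were seen. It was at 98.8 and 98.2 CPM with hairpin 1, 517 and 507 CPM with hairpin 2 and 415 and 438 CPM in control. Hairpin 1 alone stood low, and the hairpins differed 5.19-fold (log2 fold change 2.38 ± 0.04 SE, adjusted p = 8.5e-08 by edgeR). Exons of HIF1A overlap the antisense gene HIF1A-AS1. Genes of glycolysis and the hypoxia response did not move in 1 direction: 8 of 31 were higher with hairpin 2 (25.8%) and 10 lower (32.3%), near the shares over all genes, with a median of −0.01. ADM was among the higher ones. PDK1, which diverts pyruvate from mitochondria, was at 53.7 and 54.5 CPM with hairpin 1 and 25.5 and 24.2 CPM with hairpin 2. VEGFA, the angiogenic factor, was at 78.9 and 79.6 CPM with hairpin 1 and 48 and 48.9 CPM with hairpin 2, near control (49.4 and 52 CPM).

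Other stress and lipid lists also went both ways, beside 22.9% higher and 23.3% lower over all genes. NRF2 targets, which protect against oxidants, were higher in 8 cases (36.4%) and lower in 9 (40.9%) of 22. HMOX1, haem oxygenase, was at 58.4 and 59.4 CPM with hairpin 1, 138 and 145 CPM with hairpin 2 and 82.7 and 84.2 CPM in control. Leaving out replicate 2 of hairpin 1 or replicate 1 of hairpin 2 left 4 higher, and leaving out replicate 1 of hairpin 1 or replicate 2 of hairpin 2 left 5 lower. Windows matched 14 of the 22. The antioxidant element TGACNNNGC was in 3 of 7 windows of members called lower, 1 of 4 called higher and 1 of 3 not called. Over all windows the share was 13.3%, and an excess over it can come with the choice of members. In the endoplasmic reticulum and unfolded protein list 10 of 31 were higher (32.3%), 6 without replicate 2 of hairpin 2, and 8 lower (25.8%). CANX, a lectin chaperone, was at 415 and 419 CPM with hairpin 1, 840 and 855 CPM with hairpin 2 and 776 and 841 CPM in control, and XBP1, a transcription factor of that response, was 1.93-fold lower. In cholesterol and fatty acid synthesis 10 of 32 were higher (31.2%) and 9 lower (28.1%). INSIG1, a sterol sensor, was at 94.9 and 103 CPM with hairpin 1 and 39.1 and 40.3 CPM with hairpin 2, below control (81.4 and 87.9 CPM).

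Some genes were picked from earlier results of these libraries, for the largest changes of both hairpins against control or for differing between hairpins. The narrow and wide gaps between hairpins given below were thus partly set by that choice. The comparisons with control share the control libraries, so the values below concern the hairpins alone. SLC7A11, the cystine importer, was at 151 and 146 CPM with hairpin 1 and at 170 and 163 CPM with hairpin 2 (25.3 and 26 CPM in control). The log2 difference was 0.16, with a 95% interval of 0.07 to 0.26 (edgeR adjusted p = 0.014), and 0.01 with the GC and length offset (edgeR adjusted p = 0.8). It also did not pass without replicate 2 of hairpin 1 or replicate 1 of hairpin 2 (edgeR adjusted p = 0.092 and 0.14). CCL2, a chemokine for monocytes, was at 81.2 and 76.9 CPM with hairpin 1 and at 66.7 and 62.3 CPM with hairpin 2 (374 and 413 CPM in control), and TGM2, a transglutaminase, at 27.2 and 26.1 CPM and at 33.8 and 32.6 CPM (165 and 158 CPM in control). The hairpins did not overlap in these genes, and their intervals lay inside 1.5-fold.

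Wider gaps were seen for others of this set. PLAU, the urokinase, was at 7.56 and 8.41 CPM with hairpin 1 and 19.2 and 20.4 CPM with hairpin 2 (45.1 and 47.5 CPM in control), a 2.48-fold difference. SFT2D3, a membrane traffic protein, was at 1.11 and 0.801 CPM with hairpin 1 and at 7.13 and 6.99 CPM with hairpin 2, beside 8.38 and 8.48 CPM in control. Its hairpin 2 libraries thus lay near control and its hairpin 1 libraries far below. LMLN, a metallopeptidase, was 1.83-fold higher with hairpin 2, and POMK, a kinase of dystroglycan, 1.68-fold lower. NCR3LG1, which natural killer cells recognise, was at 19.1 and 16.5 CPM with hairpin 1 and at 16.4 and 16 CPM with hairpin 2, with an interval of −0.37 to 0.10 (edgeR adjusted p = 0.31).

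For some named genes the call depended on single libraries or on settings. With the test for more than 1.5-fold, 91 named genes were no longer called. LCOR, a nuclear receptor corepressor, was at 19.4 and 20.2 CPM with hairpin 1 and 35 and 32.6 CPM with hairpin 2, and CHIC1 at 14.7 and 15.8 CPM and at 22 and 22 CPM. The hairpins did not overlap, but the control libraries were far apart (14.2 and 1.78 CPM for LCOR, 2.01 and 8.78 CPM for CHIC1), and in the shared fit neither gene passed (edgeR adjusted p = 0.32 and 0.36). From the 4 hairpin libraries alone the edgeR adjusted p was 0.00011 for LCOR and 0.0013 for CHIC1. Without control replicate 1 or 2 it was 0.00019 or 0.00011 for LCOR and 0.0019 or 0.002 for CHIC1. DYNLRB1, a dynein light chain, was at 83.9 and 109 CPM with hairpin 1 and at 88.6 and 88 CPM with hairpin 2, so the groups overlapped. It was called lower (−0.3, edgeR adjusted p = 0.011) without replicate 1 of hairpin 1. IL32, a cytokine, was 1.46-fold lower with hairpin 2 but not called without replicate 1 of hairpin 2 (edgeR adjusted p = 0.057). TBX20, a cardiac transcription factor, was 1.33-fold higher (edgeR adjusted p = 0.036) and was not called when any hairpin library was left out (edgeR adjusted p = 0.09 to 0.16), with the replicate block (0.052) or with no low-count filter (0.075).

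**Figure D5:**
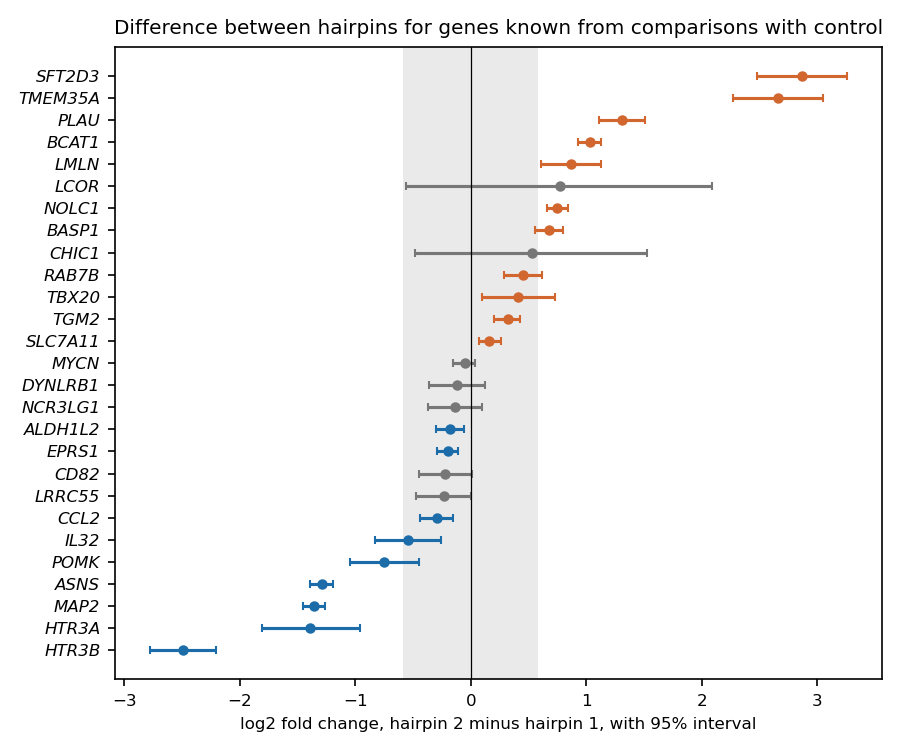
Log2 fold change between hairpins (hairpin 2 minus hairpin 1) with its 95% interval for BCAT1, MYCN and 25 genes taken from earlier results. Those genes were picked for large changes of both hairpins against control or for differing between hairpins. Orange is called higher, blue called lower and grey not called, and the grey band marks 1.5-fold either way. SLC7A11, MYCN, CCL2, TGM2 and EPRS1 lie wholly inside the band, while HTR3B, ASNS, MAP2, BCAT1, SFT2D3 and TMEM35A lie wholly outside it.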

How the data were processed

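Bulk RNA was sequenced from 6 libraries of SK-N-BE(2) cells, 2 each with shControl, BCAT1 hairpin 1 and BCAT1 hairpin 2. TRIzol extraction and TruSeq RNA libraries are per the labels' protocols. Per the submitters' processing notes the tools were HISAT2 2.2.0 and StringTie and the build hg38. Annotation release, counting options and strand were not stated. The authors deposited raw integer counts, with no normalization, for 64252 Ensembl genes, and every column was used. Of these, 56105 IDs were in the name table.

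In R 4.3.3, edgeR 4.0.16 kept 18734 genes (filterByExpr, minimum count 10) and scaled libraries with TMM (0.9596 to 1.035). Its quasi-likelihood test of hairpin 2 minus hairpin 1 used all 6 libraries (3 residual degrees of freedom), two-sided; p-values were adjusted by Benjamini-Hochberg across every gene tested, with a threshold of 0.05. Standard errors and 95% intervals came from the F statistic. The test was tested on simulated counts. Sampling noise alone would give a chi-square near 1 per gene between replicates, and the means were 8.632, 6.682 and 5.87, so no library repeats another. Coordinates and overlaps are from GENCODE 29 (hg38), promoters from RefSeq (GRCh38.p14).

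Members and lists were chosen with earlier results of these data known. Named genes are the 12 largest rises and 12 largest falls (called, with a symbol, mean CPM of at least 5 over the 4 hairpin libraries, groups not overlapping), BCAT1 and MYCN, up to 4 called members of each list with the smallest p, and 25 genes from earlier comparisons. Others are cell type markers, list members given by log2 value only, or genes said to have been named after their values were seen. Some genes that the rule names, and some markers of the label, are not reported here. Floors cover counting error only. Alternatives are RLE scaling, no or a stricter low-count filter, DESeq2 1.42.0, limma-voom (limma 3.58.1), 4 libraries only, a replicate block, a GC and length offset, a fold threshold and each library left out.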

Additional observations from a re-analysis of the deposited data

How the results depend on the processing

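Each count of genes called stayed within 1.5 times its value under RLE scaling (8655 called), no low-count filter (7612), a CPM of at least 1 (8395), DESeq2 (7661), limma-voom (8725), the 4 hairpin libraries alone (8791) and the GC and length offset (9011, 8828 with the replicate block). A fold threshold of 1.5 left 1774 genes, 958 higher and 816 lower, and a bound of 2-fold in place of 1.5-fold held the intervals of 12195 genes. Leaving out each library in turn gave 6561 to 8732 called genes, and where a hairpin library was left out the lone one was assumed to vary like the other groups. Deviations of same-numbered replicates correlated at −0.033 between hairpins, so no strong effect shared by replicates of the same number was seen. This cannot tell whether same-numbered replicates were grown or processed together. With the replicate block 8218 genes were called, 4076 higher and 4142 lower. The BCAT1 difference was 1.03 to 1.04 under the scaling, filter, tool and block alternatives, 0.89 with the GC and length offset, and 1.0 to 1.06 with a library left out. No named gene that was called, in the main test or in an alternative run, changed direction between them. Precision is limited by 2 libraries per hairpin and, under 1 CPM, by depth.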

Other observations

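Replication-dependent histones, whose mRNAs mostly lack a poly(A) tail, were called higher with hairpin 2 in 9 of 20 tested cases (45.0%, against 22.9% of all genes) and lower in 0, while the S phase genes above were mostly lower. H1-2, a linker histone, was at 5.49 and 6.04 CPM with hairpin 1, 9.24 and 9.43 CPM with hairpin 2 and 19.5 and 17.3 CPM in control. H2BC21 was 2.36-fold higher. With a test for more than 1.5-fold, 2 histones were called higher. Without replicate 1 or 2 of hairpin 1, or without replicate 1 of hairpin 2, 5 histones were called higher.

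Interferon-stimulated genes and RNA sensors, which answer double-stranded RNA, were higher in 9 of 28 cases (32.1%) and lower in 5 (17.9%). These call shares lay near those over all genes (22.9% and 23.3%), but the median log2 fold change was 0.37, against 0.005. Called or not, 20 members had a positive log2 fold change and 8 a negative value. IFIT2, an interferon-induced RNA-binding protein, was at 4.49 and 3.98 CPM with hairpin 1, 12.6 and 12.1 CPM with hairpin 2 and 6.59 and 6.54 CPM in control. IFIT1, another of that family, was 2.43-fold higher, and IFI35 1.97-fold lower. Of 14 genes of the microRNA machinery 6 were higher (42.9%) and 2 lower (14.3%); AGO4, an Argonaute, was 1.77-fold higher and XPO5, which exports hairpin precursors, 1.24-fold lower. NOTCH3, a Notch receptor, was at 7.09 and 7.73 CPM with hairpin 1, 21.9 and 23.4 CPM with hairpin 2 and 30.5 and 26.6 CPM in control. PLXNA2, a semaphorin receptor of growing axons, was at 170 and 168 CPM with hairpin 1, 75.3 and 77.3 CPM with hairpin 2 and 70.5 and 73 CPM in control. SLC18A3, the vesicular acetylcholine transporter, named after its values were seen, was at 36.5 CPM in both hairpin 1 libraries, 6.96 and 7.19 CPM with hairpin 2 and 29.2 and 25.5 CPM in control.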
